A study of Rattus norvegicus with 8 samples.

Results

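Complement component C3 (C3, ENSRNOG00000046834) and lipocalin 2 (Lcn2, ENSRNOG00000013973) were followed across RNA sequencing libraries of rat cardiac fibroblasts and myofibroblasts. Both were chosen by their Ensembl IDs, by a rule that sets no threshold on their values. Earlier results of these data were known at that choice, so the ranks and p-values below are not those of genes picked blind. C3 and Lcn2 are 2 of the 21867 genes in the table of estimated counts. The tables list genes by ID only, so the symbols were those given with the IDs when the genes were chosen and could not be checked in the tables used here. The 8 libraries formed 4 groups of 2 biological replicates. Neonatal cardiac fibroblasts (CF) of Wistar Kyoto rats, grown with 10% fetal bovine serum (FBS), were the healthy starting cells. Myofibroblasts (MF) were made from such fibroblasts by repeated passaging in low serum medium. The remaining groups were MF kept for 72 h in medium with 10% FBS under direct current of 1 µA/cm2 or 2 µA/cm2, delivered by electrodes in the culture medium. The sources used here do not give the medium of the untreated MF during those 72 h, so an effect of the current and one of the medium cannot be told apart, and likewise passaging, low serum and time in culture cannot be told apart between MF and CF. Because no table paired the IDs with symbols, markers of fibroblasts, macrophages, neutrophils or other cells were not analysed here.

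C3 is the central protein of the complement cascade. Its cleavage yields the anaphylatoxin C3a and the opsonin C3b, which tags microbes and cell debris for removal. The liver makes most of the circulating protein, and fibroblasts, macrophages and epithelial cells make it locally in inflamed tissue. Lcn2 is a small secreted protein, also called neutrophil gelatinase-associated lipocalin, which starves bacteria of iron by binding their siderophores. It is stored in neutrophil granules and is made by many other cells in inflammation. Transcription of both genes is known to rise with interleukin and tumour necrosis factor signals, through NF-kB and C/EBP factors.

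The 250 bases before the annotated start of each gene are shown because the levels of both genes followed the same order of groups. The sequences were matched by symbol in a RefSeq table of build GRCr8, which is not the build of the deposited counts (rn6). Capitals mark matches to the C/EBP core form TTGCNNAA and to the NF-kB consensus, searched on both strands. Both genes lie on the minus strand and are printed in the direction of transcription, C3 from chr9:2201340-2201589 and Lcn2 from chr3:36081781-36082030.
C3: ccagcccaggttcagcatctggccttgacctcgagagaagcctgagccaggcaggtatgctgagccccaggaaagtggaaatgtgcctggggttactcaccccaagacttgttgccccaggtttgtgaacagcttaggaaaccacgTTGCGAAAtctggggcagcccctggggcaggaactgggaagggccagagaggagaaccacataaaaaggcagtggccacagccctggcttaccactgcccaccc
Lcn2: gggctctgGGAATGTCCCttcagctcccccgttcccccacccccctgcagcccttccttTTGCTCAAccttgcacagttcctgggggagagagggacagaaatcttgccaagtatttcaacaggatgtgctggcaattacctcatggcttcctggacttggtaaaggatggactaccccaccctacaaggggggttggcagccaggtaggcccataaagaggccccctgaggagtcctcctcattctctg
Each window held a single TTGCNNAA match, TTGCGAAA from 104 to 97 bases before the start of C3 and TTGCTCAA from 191 to 184 bases before the start of Lcn2. Such a match stood in 9.22% of the 33469 RefSeq windows of this length. The Lcn2 window also held an NF-kB consensus match on the opposite strand, GGGACATTCC, from 242 to 233 bases before the start, and 3.54% of all windows held a match. No match to this consensus stood in the C3 window, and neither window held TATAAA, found in 12.9% of windows. The matches do not overlap each other. They describe letters in these windows, and binding of any factor was not measured.

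Per library, between 26473085 and 37903701 estimated counts were summed. Both genes passed the filter on low counts, as did 13849 genes in all, and each was tested in 7 comparisons by edgeR's quasi-likelihood test with all 8 libraries in a single fit. The thresholds for a call were a p below 0.05 after Benjamini-Hochberg adjustment over all genes tested and a log2 fold change of 1 or more in either direction. Levels are given as the authors' normalized counts, which are estimated counts divided by factors for library size and transcript length. These values compare a gene between libraries, not C3 with Lcn2. Counting intervals cover counting error only. In such bulk cultures, fewer expressing cells and less RNA per cell cannot be told apart.

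Cardiac fibroblasts held almost no C3 or Lcn2 RNA, and myofibroblasts held abundant RNA of both. For C3, the estimated counts were 22 and 148 in the CF libraries and 64494 and 57311 in the MF libraries. Normalized counts of C3 were 17.4 and 146 in CF and 74800 and 65530 in MF. The CF libraries stood 8.40-fold apart and the MF libraries 1.14-fold apart. Of all genes tested, 6.36% were called higher in MF. For Lcn2, the estimated counts were 16 and 21 in CF and 10236 and 9957 in MF. Its normalized counts were 13.3 and 20.7 in CF against 11287 and 11404 in MF. The CF libraries stood 1.55-fold apart, on low counts, and the MF libraries 1.01-fold apart. C3 took 0.238% of all estimated counts in MF replicate 1 (95% Clopper-Pearson interval 0.236% to 0.240%) and 0.216% in MF replicate 2 (0.215% to 0.218%).

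**Figure D1:**
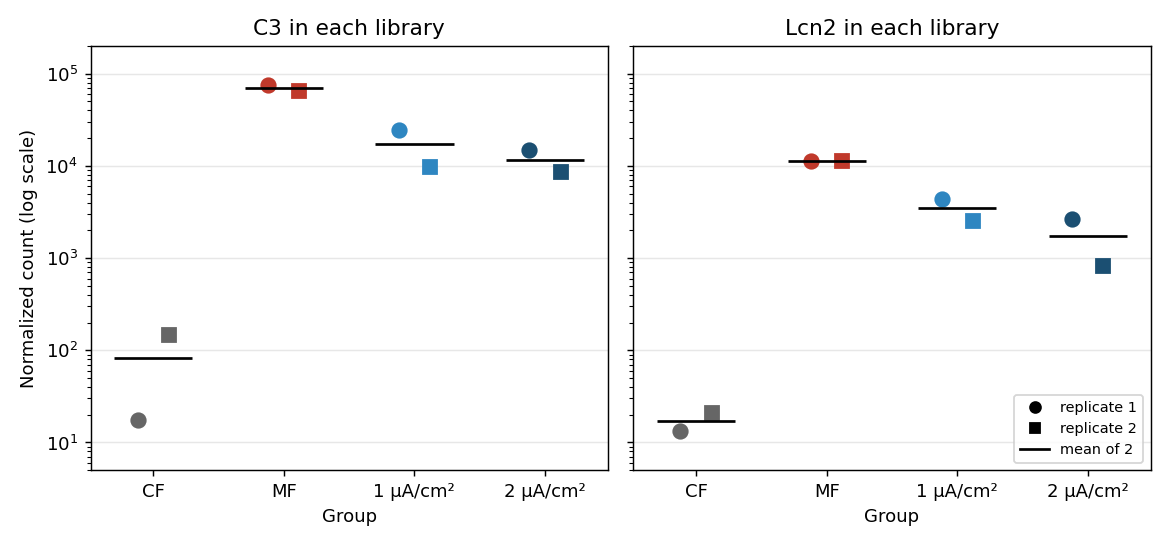
Normalized counts of C3 (left) and Lcn2 (right) on a log axis in each library of CF, MF and MF under 1 µA/cm2 or 2 µA/cm2, with circles for replicate 1, squares for replicate 2 and bars for the mean of 2. Both genes are lowest in CF and highest in MF, and all 4 treated libraries lie between these groups.

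C3 was higher in MF than in CF by 9.75 ± 1.12 on the log2 scale (SE), an 860-fold difference (adjusted p = 0.00385, edgeR). Lcn2 was higher by 9.43 ± 0.774 (SE), a 688-fold difference (adjusted p = 0.00177, edgeR). Both genes were thus called, against 6.36% of all genes, and the median log2 fold change over all genes was -0.03. In the order of log2 fold changes from the highest, C3 ranked 9 and Lcn2 ranked 12 of the 13849 genes. That order favours genes with low counts in CF. By p from the smallest, C3 ranked 229 and Lcn2 ranked 55. The size for C3 depended on the CF libraries. Without CF replicate 2 the log2 fold change was 11.9 and without CF replicate 1 it was 8.89, both still called (adjusted p = 0.00239 and 0.00795, edgeR). For Lcn2 the same omissions gave 9.79 and 9.11.

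**Figure D2:**
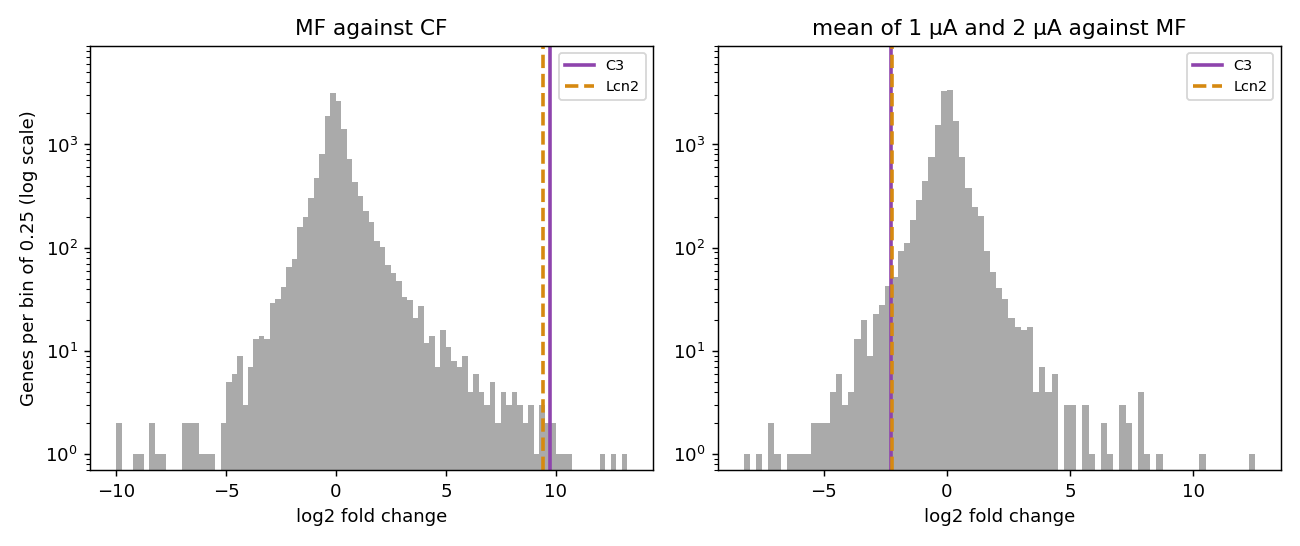
Number of genes (log axis, bins of 0.25) by log2 fold change for MF against CF (left) and for the mean of both current densities against MF (right), with lines at C3 and Lcn2. C3 at 9.75 and Lcn2 at 9.43 stand at the far right of the left panel, and at -2.28 and -2.23 they stand on the left flank of the right panel.

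Under microcurrent the level of both genes was lower than in MF in each of the 4 treated libraries. The share of all genes with this separation was not computed. By the test, 3.88% of all genes tested were called lower in the mean of both densities. C3 had estimated counts of 24650 and 9607 at 1 µA/cm2 and of 15082 and 8800 at 2 µA/cm2. The normalized counts were 24737 and 9679 at the lower density and 14701 and 8664 at the higher. As a share of the MF mean, C3 stood at 35.3% and 13.8% under 1 µA/cm2 and at 21.0% and 12.3% under 2 µA/cm2. The highest treated value was thus well below the lowest MF value. Lcn2 had estimated counts of 4200 and 2598 at 1 µA/cm2 and of 2720 and 834 at 2 µA/cm2. Its normalized counts were 4393 and 2545, then 2625 and 812. These were 38.7% and 22.4% of the MF mean at 1 µA/cm2 and 23.1% and 7.16% at 2 µA/cm2. Over the 4 treated libraries C3 averaged 20.6% ± 10.5 (SD, n = 4) of the MF mean and Lcn2 22.9% ± 12.9 (SD, n = 4). These pool 2 libraries at each density and are not 4 replicates of 1 condition.

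**Figure D3:**
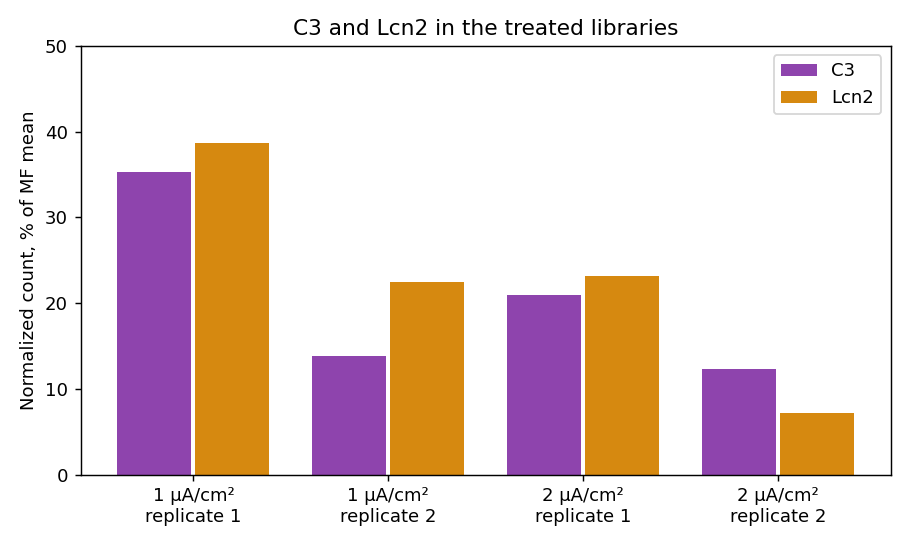
Normalized counts of C3 and Lcn2 in each of the 4 treated libraries as a percentage of the mean of the MF libraries. Bars run from 7.16% (Lcn2, 2 µA replicate 2) to 38.7% (Lcn2, 1 µA replicate 1), and replicate 1 is above replicate 2 for both genes at both densities.

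The difference between treated cells and MF passed the test for Lcn2, in the mean of both densities and at 2 µA/cm2, and did not for C3. In the mean of both current densities against MF, Lcn2 had a log2 fold change of -2.23 ± 0.418 (SE), 4.70-fold lower (adjusted p = 0.0196, edgeR), with 3.88% of all genes called lower. C3 had a log2 fold change of nearly the same size, -2.28 ± 0.630 (SE), 4.86-fold lower, but an adjusted p of 0.0553 from edgeR, so it was not called. The 95% interval of the C3 value ran from -3.78 to -0.78. At 2 µA/cm2 alone, Lcn2 had a log2 fold change of -2.73 ± 0.536 (SE, adjusted p = 0.0328, edgeR) and was called, where 2.66% of genes were called lower. C3 at 2 µA/cm2 had -2.57 ± 0.801 (SE), which was not called (adjusted p = 0.0951, edgeR). At 1 µA/cm2, where 2.27% of genes were called lower, neither gene was called. There C3 had -1.99 ± 0.784 (SE, adjusted p = 0.167, edgeR) and Lcn2 -1.74 ± 0.516 (SE, adjusted p = 0.0917, edgeR). The difference in call between C3 and Lcn2 is no test that they responded differently, and none was run.

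These calls lay near the threshold and moved with single libraries. The Lcn2 call at 2 µA/cm2 was lost without MF replicate 1 or 2 (adjusted p = 0.188 or 0.148, edgeR) and without 1 µA replicate 1 or 2 (0.0593 or 0.0600), and in the mean of both densities it was lost without MF replicate 1 or 2 (0.146 or 0.119) or 1 µA replicate 2 (0.0761). The size of the Lcn2 difference changed little in these fits, from -2.74 to -2.71 at 2 µA/cm2 and from -2.25 to -2.08 in the mean. At 2 µA/cm2 this was largely set beforehand. The 1 µA libraries do not enter that difference, and the MF libraries stood 1.01-fold apart in Lcn2. Few genes of any kind were called without an MF library, 9 or 11 at 2 µA/cm2 against 640 with all libraries, and 17 or 64 in the mean against 936. Without 2 µA replicate 1 or 2 the Lcn2 log2 fold change at 2 µA/cm2 was -3.81 or -2.12, and it stayed called. The C3 value at 1 µA/cm2 was -2.85 without 1 µA replicate 1 and -1.47 without replicate 2, neither called. For Lcn2 at 1 µA/cm2, a call was gained without 2 µA replicate 1 or 2 (adjusted p = 0.0217 or 0.0218, edgeR). C3 became called without CF replicate 1 or 2, both at 2 µA/cm2 (0.0285 or 0.0284) and in the mean of both densities (0.0156 or 0.0155), and DESeq2 called it in both comparisons (0.0454 and 0.0307). In none of the settings run was either gene higher in treated cells than in MF. Every treated library lay below both MF libraries, so these settings could hardly have turned the direction.

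**Figure D4:**
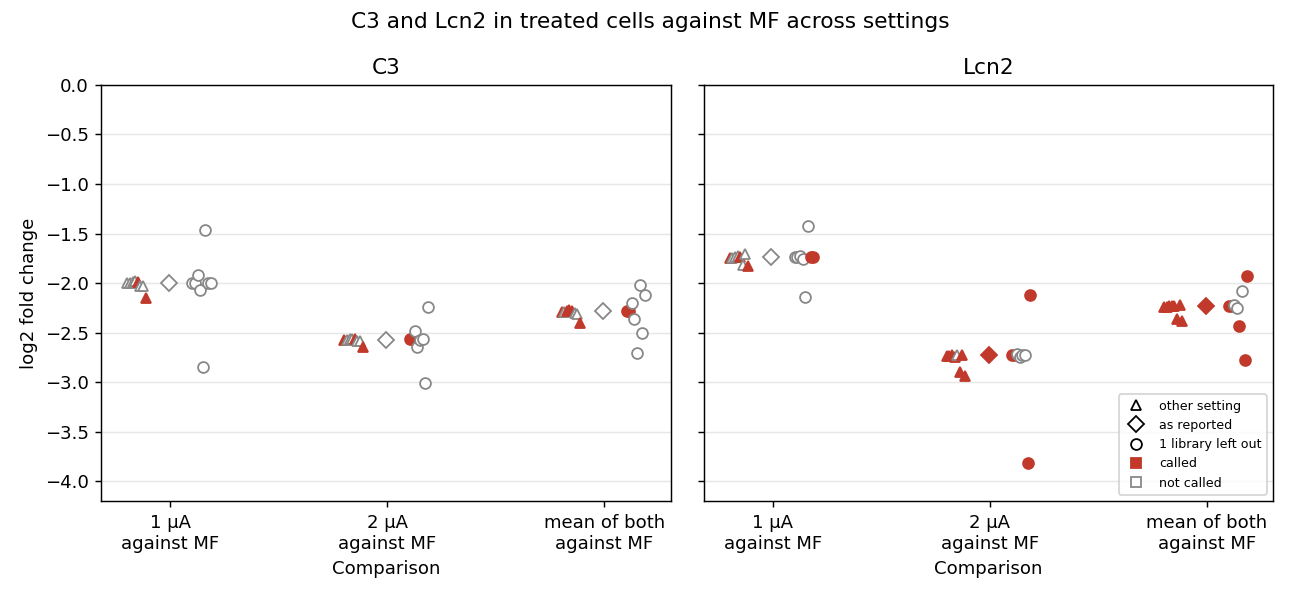
Log2 fold change against MF (vertical axis) of C3 (left) and Lcn2 (right) at 1 µA/cm2, at 2 µA/cm2 and in the mean of both, as reported (diamonds), under other settings (triangles) and with 1 library left out (circles). Filled red symbols were called and open grey ones were not, and every symbol lies below 0.

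Treated cells still held far more RNA of both genes than CF, and both were called against CF at each density. C3 in the treated libraries was from 106-fold to 303-fold above the CF mean and Lcn2 from 47.7-fold to 258-fold. At 1 µA/cm2 the log2 fold change against CF was 7.75 ± 1.04 (SE, adjusted p = 0.00962, edgeR) for C3 and 7.69 ± 0.737 (SE, adjusted p = 0.00421, edgeR) for Lcn2, and 3.82% of genes were called higher. At 2 µA/cm2 it was 7.18 ± 1.02 (SE, adjusted p = 0.0137, edgeR) for C3 and 6.70 ± 0.719 (SE, adjusted p = 0.00762, edgeR) for Lcn2, and 2.89% of genes were called higher. On the log2 scale of normalized counts, C3 in the treated libraries lay from 15.4% to 31.0% of the way from the MF mean to the CF mean. For Lcn2 these shares ran from 14.6% to 40.6%, with the highest in 2 µA replicate 2. On the variance stabilised scale, which compresses differences at low counts, they were 16.3% to 32.8% for C3 and 18.4% to 50.2% for Lcn2.

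The values against CF also moved with single libraries. Without CF replicate 1 or 2, the C3 log2 fold change was 6.90 or 9.93 at 1 µA/cm2 and 6.33 or 9.36 at 2 µA/cm2. Without 1 µA replicate 1 it was 6.90 at 1 µA/cm2 and no longer called (adjusted p = 0.0519, edgeR). Without 2 µA replicate 1, Lcn2 at 2 µA/cm2 was at 5.62, and without replicate 2 it was at 7.31, both called. With only the 2 µA and CF libraries in the fit, the calls at 2 µA/cm2 were lost for C3 (adjusted p = 0.101, edgeR) and Lcn2 (adjusted p = 0.0775), and 2 genes in all were then called.

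The order of the mean levels was the same for both genes, with MF highest, then 1 µA/cm2, then 2 µA/cm2, then CF. The 2 current densities were not told apart. Their ranges overlapped, since 2 µA replicate 1 lay above 1 µA replicate 2 for both genes. The log2 fold change of 2 µA/cm2 against 1 µA/cm2 was -0.57 for C3, with a 95% interval from -2.38 to 1.23, and -0.99 for Lcn2, with an interval from -2.20 to 0.22 (adjusted p = 1 for both genes, edgeR). Of all genes tested, 0.00722% were called in this comparison. The intervals leave room for a several-fold difference in either gene. Without 1 µA replicate 1, the C3 value turned to 0.28. The Lcn2 value was -2.07 without 2 µA replicate 1, -0.38 without 2 µA replicate 2, -0.59 without 1 µA replicate 1 and -1.30 without 1 µA replicate 2, not called in any of these.

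**Figure D5:**
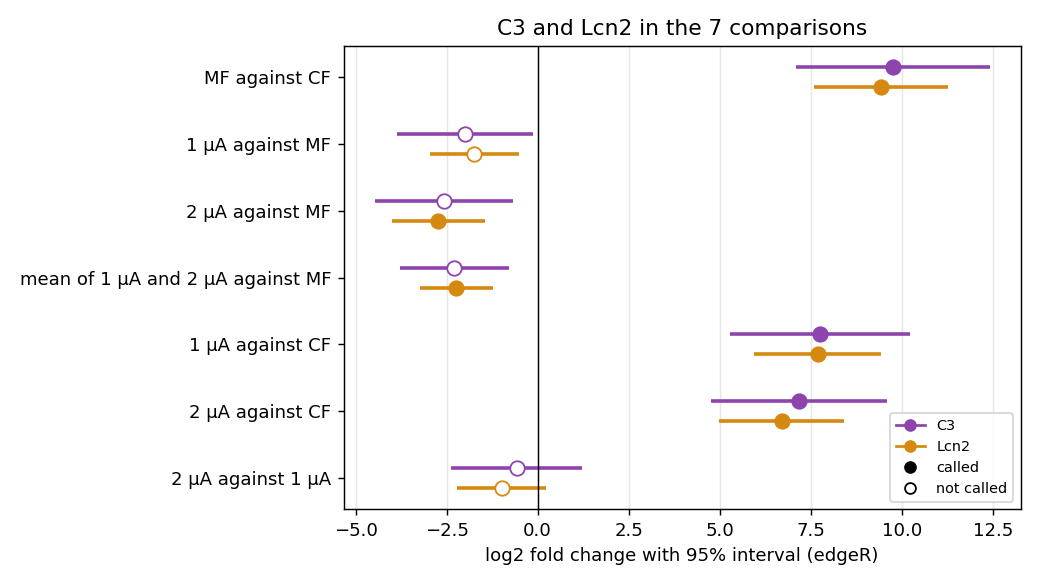
Log2 fold change (points) with 95% intervals from edgeR (lines) of C3 and Lcn2 in each of the 7 comparisons, filled where called. The values against CF lie from 6.70 to 9.75, those against MF from -2.73 to -1.74, and both intervals for 2 µA/cm2 against 1 µA/cm2 cross 0.

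Replicates of the treated cells were far apart in these genes. C3 was 2.56-fold higher in replicate 1 than in replicate 2 at 1 µA/cm2 and 1.70-fold higher at 2 µA/cm2. Lcn2 was 1.73-fold and 3.23-fold higher in replicate 1 at these densities. On the variance stabilised scale, only 0.318% of the genes tested had a larger gap between the 1 µA replicates than C3, and 1.46% had a larger gap than Lcn2. Between the 2 µA replicates, 5.05% of genes had a larger gap than C3 and 0.505% a larger gap than Lcn2. In CF, 0.635% of genes had a larger gap than C3 and 50.9% a larger gap than Lcn2. Lcn2 rests on low counts in CF, where this scale compresses differences, and its 1.55-fold gap there became 0.206 units. The MF replicates showed no such spread, with 26.2% and 92.0% of genes at larger gaps than C3 and Lcn2.

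C3 and Lcn2 did not keep a fixed proportion within the treated libraries. Relative to its mean in MF, the ratio of C3 to Lcn2 was 0.913 and 0.616 under 1 µA/cm2 and 0.908 and 1.73 under 2 µA/cm2. It was 0.211 and 1.14 in the CF libraries, where both genes rest on low counts, and 1.07 and 0.931 in MF. The treated libraries thus lay on both sides of the MF ratio. The lowest of them was 1 µA replicate 2 and the highest 2 µA replicate 2.

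The matrix of whole-number counts, which the authors also deposited, listed both genes with the same order of groups. C3 had 16 and 101 counts in CF, 47104 and 41028 in MF, 17590 and 6933 at 1 µA/cm2 and 10894 and 6309 at 2 µA/cm2. Lcn2 had 13 and 13 counts in CF, 7888 and 7521 in MF, 3144 and 1979 at 1 µA/cm2 and 2021 and 637 at 2 µA/cm2. Fitted in the same way, this matrix gave log2 fold changes of 9.80 for C3 and 9.51 for Lcn2 between MF and CF. In the mean of both densities against MF it gave -2.27 for C3, which was called there (adjusted p = 0.0464, edgeR), and -2.23 for Lcn2 (adjusted p = 0.0163, edgeR).

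The likeness of other genes to this pattern was measured by Pearson's correlation of variance stabilised values over the 8 libraries, among genes whose values spanned at least 2 units. It is a description, since the libraries share their groups and the CF libraries stand far from the rest. The correlation of C3 with Lcn2 was 0.983. Of the 779 genes compared with each, 24 were more like C3 than Lcn2 was, and 13 were more like Lcn2 than C3 was. Correlations over 0.95 were found in 12.8% of the genes for C3 and in 9.50% for Lcn2. Most like C3 was ENSRNOG00000054524 (r = 0.997), with normalized counts of 9.48 and 38.4 in CF, 859 and 869 in MF, 652 and 450 at 1 µA/cm2 and 487 and 335 at 2 µA/cm2. Most like Lcn2 was ENSRNOG00000003064 (r = 0.995), with normalized counts of 246 and 274 in CF, 2183 and 2146 in MF, 1735 and 1237 at 1 µA/cm2 and 1498 and 727 at 2 µA/cm2. Both of these genes had replicate 1 above replicate 2 in the treated groups, which is in part set by choosing them on these same libraries. Their changes were smaller, with log2 fold changes between MF and CF of 5.19 for ENSRNOG00000054524 and 3.09 for ENSRNOG00000003064. At rank 2 in likeness stood ENSRNOG00000032339 for C3, with 4.45, and ENSRNOG00000004089 for Lcn2, with 6.88.

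Of the 881 genes called higher in MF than in CF, 123 (14.0%) were at least 16-fold higher, C3 and Lcn2 among them. In the mean of both current densities against MF, ordered over all 13849 genes from the most negative log2 fold change, C3 ranked 165 and Lcn2 ranked 171.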

How the data were processed

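RNA was sequenced from 8 libraries, 2 per group, and each library's group and replicate number came from its title. The authors quantified reads with salmon on the rat rn6 transcriptome, summarized them with tximeta and deposited estimated counts per gene. From these the authors made normalized counts, held here as a signal, with DESeq2, and log2 values after variance stabilisation. A further deposited table holds whole-number counts, whose counting tool is not given in the sources used here (the labels describe fastp and STAR). Pseudo-alignment can split reads between like transcripts, so both count tables are shown.

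Estimated counts were rounded and fitted in R 4.3.3 by edgeR 4.0.16, which uses limma 3.58.1. Low genes were removed by filterByExpr, libraries were scaled by TMM, dispersions were estimated robustly, and each group had 1 coefficient, which left 4 residual degrees of freedom. Standard errors were obtained as the size of the log2 fold change over the root of its F statistic, and the 95% intervals use the t distribution with the moderated degrees of freedom. The common biological coefficient of variation was 18.4%. On simulated counts with 200 changed genes, the fit called 95.5% of them for MF against CF (13658 genes). For the mean of both densities against MF it called 98% (13668 genes). Among unchanged genes, 2 and 3 were called. Every simulated gene was given the common coefficient of variation, so these shares do not describe genes that vary more between replicates. To look for duplicated libraries, replicates were compared with counting noise (chi-square per gene of 16.2 to 116), and none was treated as a copy. This says nothing of the size of biological variation. Alternatives were DESeq2 1.42.0, RLE scaling, no filter, the whole-number matrix, only the groups compared, a replicate block, transcript length offsets and leaving out each library. A replicate block without the CF libraries was added later.

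The genes, lists and tests were chosen with earlier results of these data known. Named genes were to be C3, Lcn2, the genes most like them and at most 4 per gene list. The lists (complement components, regulators and receptors, Lcn2 partners, regulators of both genes, inflammatory mediators, cell type markers) were not run, since neither the tables nor the RefSeq table (GRCr8) pairs symbols with the Ensembl IDs. Proteins were not analysed here. Figures used Python 3.11.15 and matplotlib 3.10.9.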

Additional observations from a re-analysis of the deposited data

How the results depend on the processing

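Of 218 values recomputed over 14 member comparisons, 187 kept their direction and their call, 30 kept the direction with another call, and 1 turned. Most of the changed calls lay in treated cells against MF. There C3, not called as reported, stayed uncalled in 14 of 16 values at 1 µA/cm2, 11 of 16 at 2 µA/cm2 and 9 of 16 in the mean. Lcn2 stayed uncalled in 11 of 16 at 1 µA/cm2. It stayed called in 11 of 16 at 2 µA/cm2 and in 13 of 16 in the mean. The cause of these changes was not tested. The rise of C3 and Lcn2 from CF to MF was called in every setting run. With DESeq2, calls were gained for C3 at 2 µA/cm2 (-2.58) and in the mean of both densities (-2.29) and for Lcn2 at 1 µA/cm2 (-1.75), all against MF. C3 in that mean was also called without a filter (-2.28) and in the whole-number matrix (-2.27). With only the groups compared, C3 was called at 1 µA/cm2 (-1.99), at 2 µA/cm2 (-2.56) and in the mean (-2.28), and Lcn2 at 1 µA/cm2 (-1.73). That setting lost Lcn2 at 2 µA/cm2 against MF (-2.72, adjusted p = 0.0503, edgeR) and both genes at 2 µA/cm2 against CF (7.17 for C3 and 6.69 for Lcn2).

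Leaving out 1 library gave log2 fold changes for C3 of 8.89 to 11.9 (MF against CF), -2.85 to -1.47 (1 µA against MF), -3.00 to -2.24 (2 µA against MF), -2.71 to -2.02 (mean against MF), 6.90 to 9.93 (1 µA against CF), 6.33 to 9.36 (2 µA against CF) and -1.10 to 0.28 (2 µA against 1 µA). The last turned sign without 1 µA replicate 1. For Lcn2, in the same order, the ranges were 9.11 to 9.79, -2.14 to -1.43, -3.81 to -2.12, -2.77 to -1.93, 7.28 to 8.05, 5.62 to 7.31 and -2.07 to -0.38. A group cut to 1 library was assumed to vary like the others.

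The replicate block changed no call with all groups in the fit, and gave -2.31 for C3 and -2.36 for Lcn2 in the mean against MF. Deviations of same-numbered replicates correlated at 0.328 between the treated groups but from -0.261 to 0.0765 in the other group pairs, so the numbers were not taken to pair the libraries. With the block and without the CF libraries (chosen after seeing the data), C3 was called at 1 µA/cm2 (-2.15), at 2 µA/cm2 (-2.64) and in the mean (-2.40), and Lcn2 at 1 µA/cm2 (-1.83).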
